A study of Mus musculus with 4 samples.

Results

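Translation initiation and elongation factors are the soluble proteins that load the initiator tRNA and the mRNA onto the ribosome and then drive it along the coding sequence. The genes described here are the protein-coding genes of the mouse GRCm38 annotation whose symbol is Eif or Eef followed by a digit, leaving out the eIF4G scaffold genes Eif4g1, Eif4g2 and Eif4g3 and the eIF4E-binding protein genes Eif4ebp1 and Eif4ebp2. There are 66 such genes among 21887 protein-coding genes on the assembled chromosomes, and they include regulators of the factors as well as the factors themselves. The rule uses gene symbols and no measured value, although it was set with earlier results of these data known. Occupancy of the transcription factor Deaf1 at them was read from chromatin immunoprecipitation followed by sequencing (ChIP-seq) in C2C12, a standard mouse cell line of myoblasts, the precursors of muscle fibres, grown in serum-containing medium. The groups were 2 libraries immunoprecipitated with an antibody against Deaf1 and 2 input libraries made without antibody, all from C2C12 cells with no treatment named. Occupancy was mapped in 1 condition, so nothing here is a change in binding. The labels do not say whether the replicates came from separate cultures. Peak lists hold no expression values, so the identity of the cells was not checked against markers here. None of the 5 myoblast genes looked at (Myod1, Myf5, Pax7, Des and Myog) had a peak at a gene end in any list. Only 6.99% to 11.2% of all protein-coding genes had one, depending on the list, so its absence from 5 genes says little.

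In initiation, eIF2 brings the initiator tRNA to the small ribosomal subunit, eIF1 and eIF1A keep that subunit scanning until a start codon is met, eIF3 holds the assembly together, and the cap-binding protein eIF4E with the helicase eIF4A recruits the mRNA. The exchange factor eIF2B recharges eIF2 with GTP, and kinases that phosphorylate the alpha subunit of eIF2 slow this step under stress. In elongation, eEF1A delivers each aminoacyl-tRNA, eEF1B recharges eEF1A, and eEF2 moves the ribosome by a codon. Growing myoblasts depend on a high rate of protein synthesis. Deaf1 is a transcription factor with a SAND domain that is known to bind DNA at TTCG.

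A gene was called bound where a region of the authors' combined list of both ChIP libraries lay within 1 kb of either end of the gene's span. By this rule 21 of 66 factor genes were bound (31.8%), against 6.99% of all protein-coding genes and 6.91% of the 21821 others, a ratio of shares of 4.60. In the peak list of replicate 1 alone 22 factor genes had a peak (33.3%, against 7.53% of all protein-coding genes), and in that of replicate 2 alone 31 did (47.0%, against 11.2%). All 21 bound genes had a peak in both lists, which the rule nearly fixes because each combined region overlaps peaks of both libraries. The bound genes made up 95.5% of the factor genes with a peak in replicate 1 and 67.7% of those with a peak in replicate 2. Another 10 factor genes had a peak in replicate 2 only, 1 in replicate 1 only, and 34 in neither. Among all 21887 protein-coding genes 1529 were bound, 1647 had a peak in replicate 1 and 2461 in replicate 2. The larger number in replicate 2 was thus not particular to the factor genes. The share of factor genes was the higher one under each other rule tried. Each region of the combined list has a score from its irreproducible discovery rate (IDR), an estimate of how likely it is that its rank fails to repeat in the other library, and scores of 540 and 830 stand for an IDR of 0.05 and 0.01. A score of at least 540 left 12 factor genes (18.2%, against 3.13% of all protein-coding genes) and one of at least 830 left 2 (3.03%, against 0.393%). Requiring −log10 q of at least 5 in both libraries left 18 (27.3%, against 6.29%). A distance of 500 bp gave 19 (28.8%, against 6.53%) and one of 5 kb gave 22 (33.3%, against 8.77%). The whole gene span plus 1 kb gave 21 (31.8%, against 7.68%) and the replicate 2 summit in place of the region gave 20 (30.3%, against 6.88%). Within 1 kb of an annotated start 16 of 52 factor genes were bound (30.8%, against 7.31% of genes with a known start). Without predicted genes and chemosensory receptor genes, 7.94% of all protein-coding genes were bound. These shares are given without a test, because the genes were chosen with earlier results of these data known.

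**Figure D1:**
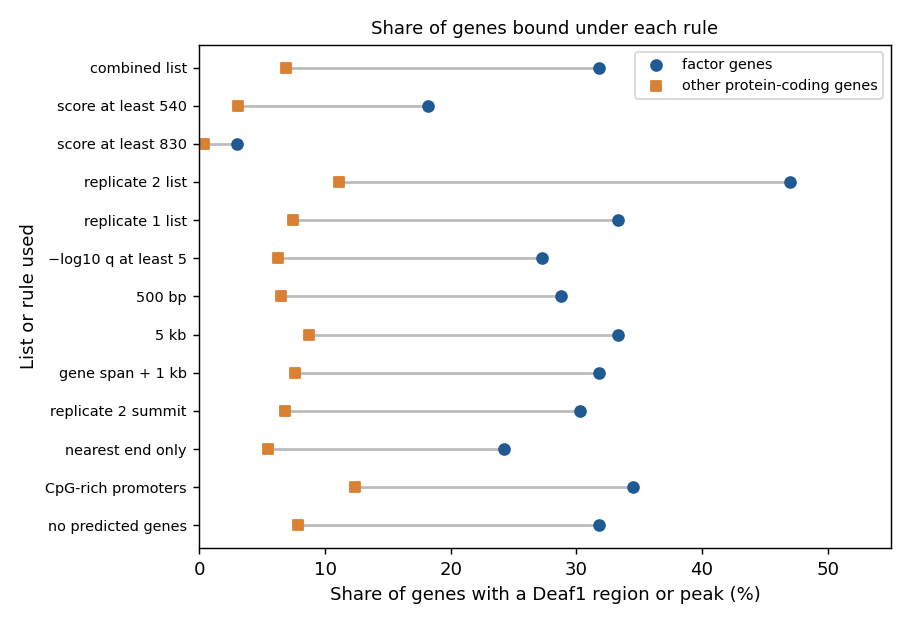
Share of genes (%) with a Deaf1 region or peak, for the factor genes (circles) and all other protein-coding genes (squares), under each list or rule on the vertical axis. In the combined list 31.8% of factor genes and 6.91% of other genes were bound, and the share of factor genes is the higher one in every row.

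The promoters of the bound genes with the largest enrichment are shown for the sequence around their annotated starts. They are printed here from 250 bases before to 50 bases after the annotated start, from RefSeq on GRCm38.p6, read 5′ to 3′ on the gene's own strand. They were taken as the 5 bound genes with the largest mean fold enrichment among those with an entry in the promoter table and a region near that start. Eif4e2 was ranked by the stronger of its regions. The summits of that region lie 407 bp and 384 bp downstream of the start used for the window, outside the printed bases. From the nearest annotated start of Eif4e2 they lie 379 bp and 356 bp downstream. Eef2 and Eef1a1, the genes of the translocation factor and of the main tRNA delivery factor, are added as examples of promoters without a Deaf1 region. Capitals mark TTCG on either strand (TTCG or CGAA as printed).
Eef1b2 (chr1:63176581-63176880, plus strand): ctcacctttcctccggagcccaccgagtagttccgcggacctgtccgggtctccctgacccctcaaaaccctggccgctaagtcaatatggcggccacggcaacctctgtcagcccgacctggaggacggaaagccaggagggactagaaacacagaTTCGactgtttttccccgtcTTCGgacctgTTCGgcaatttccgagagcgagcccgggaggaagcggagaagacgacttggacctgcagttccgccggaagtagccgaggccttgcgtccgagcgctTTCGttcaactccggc
Eif2b1 (chr5:124579082-124579381, minus strand): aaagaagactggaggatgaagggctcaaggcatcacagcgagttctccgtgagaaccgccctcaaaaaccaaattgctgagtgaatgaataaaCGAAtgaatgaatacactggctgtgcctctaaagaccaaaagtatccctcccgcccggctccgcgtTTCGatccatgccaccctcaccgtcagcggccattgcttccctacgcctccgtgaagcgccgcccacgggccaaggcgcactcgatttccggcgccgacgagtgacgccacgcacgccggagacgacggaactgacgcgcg
Eif4a3 (chr11:119299994-119300293, minus strand): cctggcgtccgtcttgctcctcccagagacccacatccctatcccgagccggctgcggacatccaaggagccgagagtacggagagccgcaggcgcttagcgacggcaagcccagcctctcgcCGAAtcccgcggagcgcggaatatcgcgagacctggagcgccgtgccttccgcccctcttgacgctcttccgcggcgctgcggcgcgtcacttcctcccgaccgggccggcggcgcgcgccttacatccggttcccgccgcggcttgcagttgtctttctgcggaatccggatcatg
Eif3l (chr15:79074973-79075272, plus strand): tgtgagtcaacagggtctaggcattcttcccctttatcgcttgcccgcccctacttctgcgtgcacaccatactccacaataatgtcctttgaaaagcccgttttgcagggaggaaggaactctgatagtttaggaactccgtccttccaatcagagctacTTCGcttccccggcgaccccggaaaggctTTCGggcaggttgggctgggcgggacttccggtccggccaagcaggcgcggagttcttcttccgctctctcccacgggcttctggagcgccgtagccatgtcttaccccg
Eif4e2 (chr1:87213661-87213960, plus strand): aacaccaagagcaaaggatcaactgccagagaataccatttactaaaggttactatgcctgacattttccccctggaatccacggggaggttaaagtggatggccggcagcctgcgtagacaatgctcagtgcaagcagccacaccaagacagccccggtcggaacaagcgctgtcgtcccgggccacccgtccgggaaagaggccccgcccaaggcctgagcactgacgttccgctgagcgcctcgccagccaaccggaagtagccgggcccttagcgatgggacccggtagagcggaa
Eef2 (chr10:81176381-81176680, plus strand): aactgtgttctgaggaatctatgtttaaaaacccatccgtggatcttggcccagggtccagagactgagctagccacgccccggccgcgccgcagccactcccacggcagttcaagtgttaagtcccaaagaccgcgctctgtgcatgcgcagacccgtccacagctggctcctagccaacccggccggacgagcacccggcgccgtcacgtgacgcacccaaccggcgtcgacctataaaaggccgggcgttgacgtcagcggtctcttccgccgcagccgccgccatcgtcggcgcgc
Eef1a1 (chr9:78481675-78481974, minus strand): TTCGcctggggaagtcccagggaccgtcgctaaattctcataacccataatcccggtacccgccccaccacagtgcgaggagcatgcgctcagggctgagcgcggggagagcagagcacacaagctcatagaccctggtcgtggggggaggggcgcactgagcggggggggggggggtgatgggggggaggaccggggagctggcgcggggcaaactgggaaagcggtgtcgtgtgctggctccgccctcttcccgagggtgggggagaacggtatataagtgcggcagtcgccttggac

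The Eef1b2 promoter held 4 copies of TTCG, and the summit of the peak lay 4 bp from the centre of the nearest copy in replicate 1 and 12 bp in replicate 2. The Eif3l promoter held 2 copies, with the summit 12 bp and 29 bp from the nearest. The promoters of Eif2b1 and Eif4a3 did not show this closeness. At Eif2b1 the nearest copy was 117 bp and 114 bp from the summits, and at Eif4a3 it was 90 bp and 78 bp away. The Eif4e2 window held none. It covers the summits of the weaker Eif4e2 region, 16 bp and 11 bp upstream of the start. The sequence at the summits of the stronger Eif4e2 region was not searched. Eef2 has none in its window and Eef1a1 has 1, at the far upstream edge.

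Among the 52 factor genes with an entry in the promoter table, 13 of 17 bound ones (76.5%) and 25 of 35 unbound ones (71.4%) held TTCG in the window. Of all 17492 protein-coding genes with an entry, 49.0% held it. Among the other genes it was 70.0% of the bound and 47.3% of the unbound ones, with no test of the differences. Over 10 regions whose replicate 2 summit fell inside the printed kind of window, 8 windows held TTCG, and in 1 of them a copy lay within 25 bp of the summit. The median distance was 84 bp. The letters CCGGAA on either strand, the core of sites that ETS family factors bind, stood in 9 of 17 bound factor promoters (52.9%) and 11 of 35 unbound ones (31.4%), against 65.4% of the other bound genes and 15.6% of the other unbound genes. A match is a description of the sequence, and no match says only that the letters are not in this window. TTCG contains a CpG, and among other genes with at least 22 CpG in the window 65.8% held TTCG.

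CpG dinucleotides were more numerous in factor promoters than in the average promoter. The median number of CpG dinucleotides in the window was 24 at bound factor genes, 22 at unbound factor genes, 22 at other bound genes and 12 at other unbound genes. Among genes whose window held at least 22 CpG, the median of the factor genes, 10 of 29 factor genes (34.5%) were bound, against 12.5% of all 5467 such genes and 12.4% of the others. The ratio of shares was 2.79 there and 4.60 over all genes. The comparison genes were not matched gene by gene.

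**Figure D2:**
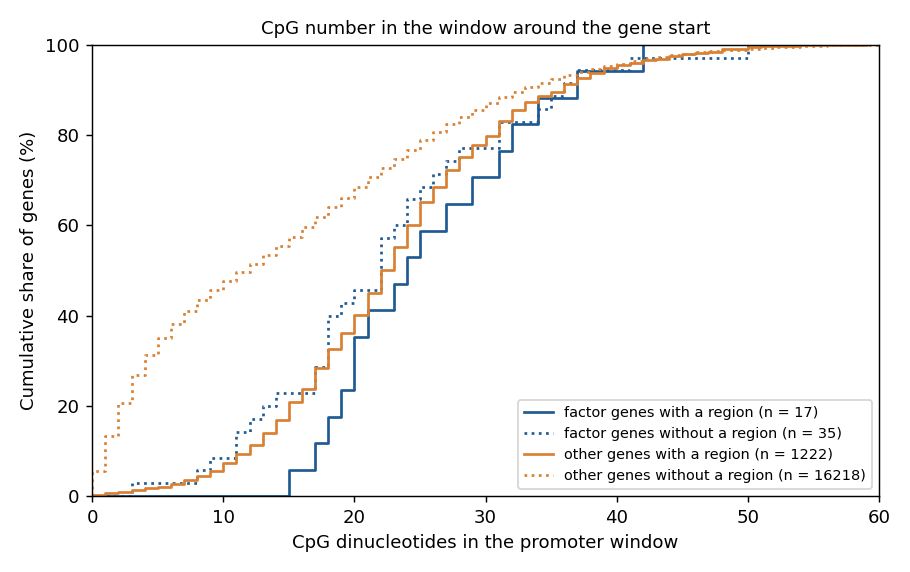
Cumulative share of genes (%) by the number of CpG dinucleotides in the window from 250 bases before to 50 bases after the gene start, for bound (solid) and unbound (dotted) factor genes and other genes. The curve of the other unbound genes lies far to the left, with a median of 12, while the other 3 groups have medians of 22 to 24.

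Bound genes occurred in 13 of 17 roles, as the plot of genes by role shows. Of the 14 eIF3 subunit genes, 7 were bound. Of the 8 genes for the kinase and the methyltransferases that modify elongation factors, none had a region in the combined list, and 3 had a peak in replicate 2. Both eEF1A genes, both eIF5A genes and both genes of other eIF4E partners (Eif4ebp3 and Eif4enif1) had no peak at a gene end in either list. With 1 to 14 genes per role, the roles are too small to be ranked by their shares.

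**Figure D3:**
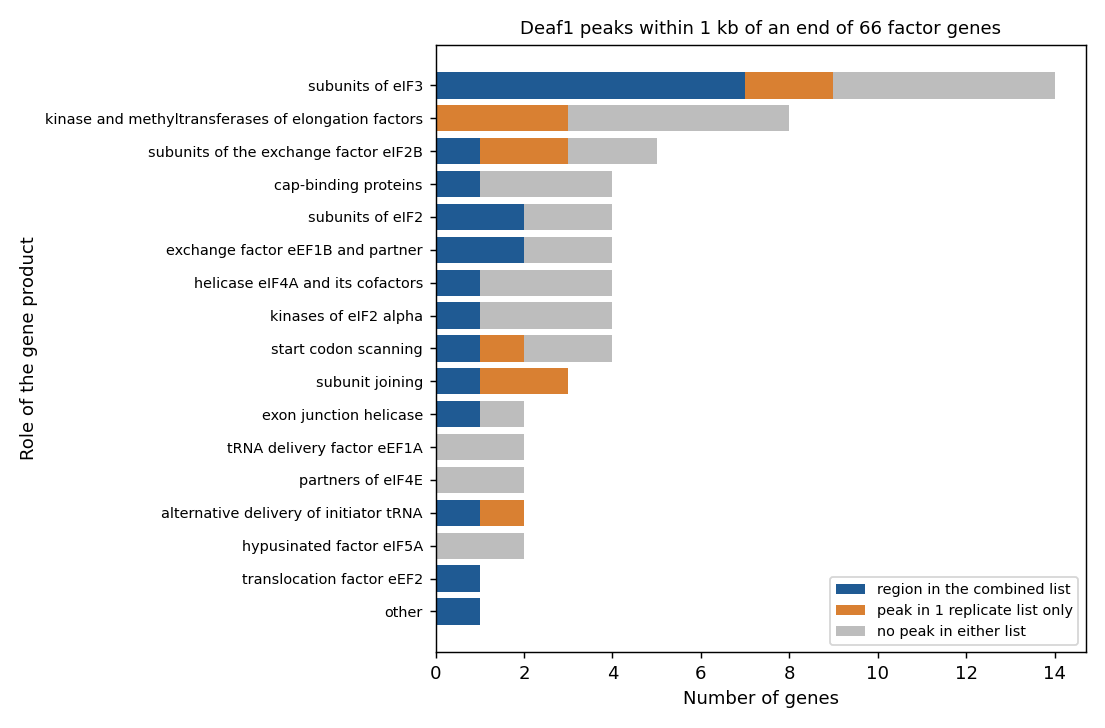
Number of factor genes by role, split into those with a region in the combined list, those with a peak in the list of 1 replicate only and those without a peak, within 1 kb of a gene end. The eIF3 subunits have the most bound genes, 7 of 14, and the genes for eEF1A, eIF5A and the eIF4E partners have grey bars only.

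The values that follow are fold enrichments at the summit over the local background, as the authors' peak caller wrote them, with the number of ChIP fragments stacked at the summit, recovered from the fold and the p of the same peak, and its 95% exact Poisson interval. Intervals cover counting error only. The lowest background of each list was 1.80 fragments in replicate 1 and 2.09 in replicate 2, so replicate 2 carried 1.16 times the background of replicate 1. The peak lists held 1860 and 3126 peaks and the combined list 1550 regions.

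The 21 bound factor genes had 23 regions, since Eef1b2 and Eif4e2 had a pair each. Their median fold enrichment was 8.91 in replicate 1 and 10.2 in replicate 2, and the median of the means was 9.12. The 1226 regions at ends of other genes had medians of 7.50 and 8.42 and a median mean of 8.04. The mean exceeded 10 in 10 of the 23 factor regions (43.5%) and in 27.3% of the other gene-end regions. A score of at least 540 was reached by 13 of 23 (56.5%) and by 41.9%. The fold was higher in replicate 2 in 18 of the 23 (78.3%) and in 64.4% of the other gene-end regions. At all 23 the exact interval of the ratio of summit fragments between the libraries held the background ratio of 1.16. A difference between the libraries beyond depth was thus not detectable at single factor regions. Most of the ratios themselves lay above 1.16, and a shift over the regions as a set was not tested.

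**Figure D4:**
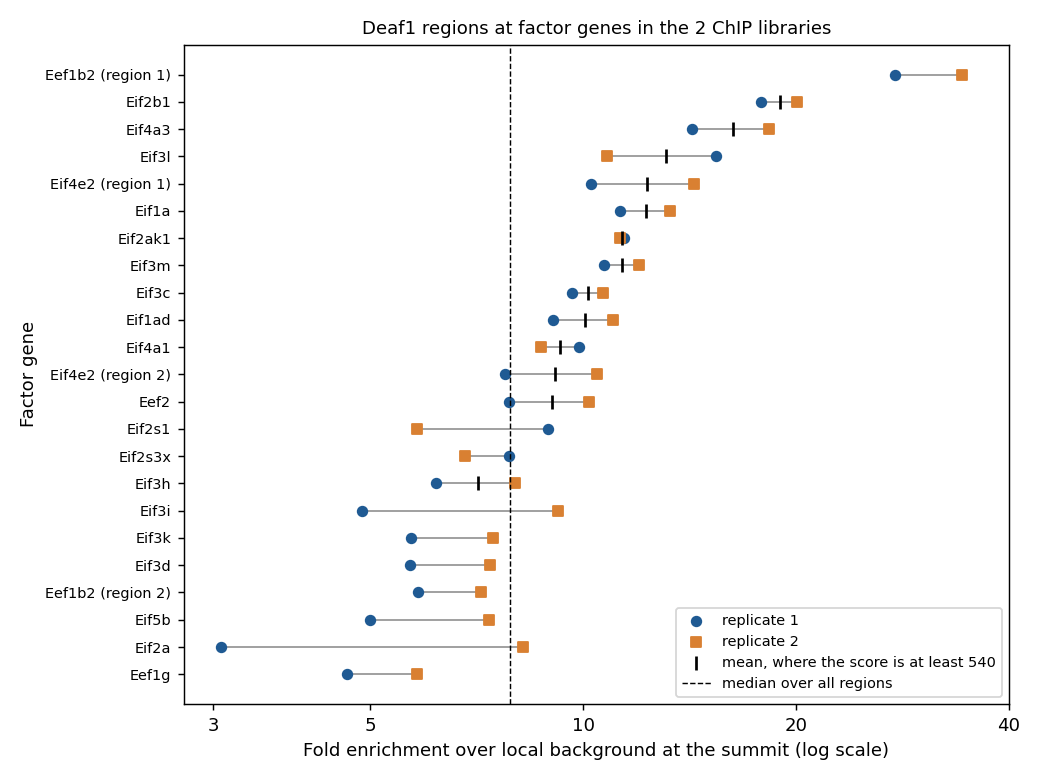
Fold enrichment at the summit (log scale) in replicate 1 (circles) and replicate 2 (squares) for the 23 regions at bound factor genes, sorted by their mean, with a tick at the mean where the combined score is at least 540. The first Eef1b2 region stands apart at 27.6 and 34.3, and the dashed line is the median of the means of all 1550 regions, 7.88.

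Among the elongation factor genes, Eef1b2 carried the strongest region of all the factor genes. Eef1b2 encodes the nucleotide exchange subunit of eEF1B. The region spanned chr1:63175353-63178196, was 2844 bp wide and was merged from 3 peaks of replicate 1 and 2 of replicate 2. Its fold enrichment was 27.6 in replicate 1 (104 fragments, 85.0 to 126) and, for replicate 2, 34.3 (133 fragments, 111 to 158), on average 31.0 ± 4.7 (SD, n = 2). That placed it 19th among the 1550 regions, and the next factor region ranked 60th. Its summits lay 96 bp and 104 bp upstream of the Eef1b2 start, and 95 bp from an end of Ndufs1, a gene for a subunit of respiratory complex I, by replicate 2. The region thus lay at an end of both genes. Its score was 121, the lowest in the combined list. A weaker region at chr1:63181142-63181329, 724 bp beyond the other end of Eef1b2, had folds of 5.85 and 7.18 (17 and 27 fragments).

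Eef1g, which encodes the structural gamma subunit of eEF1B, had the weakest of the 23 regions. It lay at chr19:8966819-8967184, with folds of 4.64 in replicate 1 (12 fragments, 6.20 to 21.0) and 5.83 in replicate 2 (17 fragments, 9.90 to 27.2) and a score of 121. The intervals of the 2 libraries overlapped widely. Eef1d, for the delta subunit, and Eef1e1, for a partner found in the tRNA synthetase complex, had no peak in either list.

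The Eef2 region was not at the Eef2 promoter. It lay at chr10:81182811-81183008, beyond the far end of the gene, with its replicate 2 summit 6239 bp downstream of the Eef2 start and 117 bp from an end of the neighbouring kinase gene Dapk3. The folds were 7.85 (21 fragments) and 10.2 (31 fragments), a mean of 9.03 ± 1.67 (SD, n = 2). By the nearest gene end this region belongs to Dapk3, and within 1 kb of annotated starts Eef2 was not bound. Eef1a1 and Eef1a2, the widely expressed and the muscle and neuron forms of eEF1A, had no peak at an end.

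Enzymes that modify the factors tune elongation. Of these, Eef2kmt, Eef1akmt3 and Eef1aknmt, which encode methyltransferases, had a peak in replicate 2 only, with folds of 3.85, 5.50 and 7.43. Eef2k, for the kinase that inhibits eEF2, had none in either list, nor did Eef1akmt1, Eef1akmt2, Eef1akmt4 and Eef1akmt4-ece2, the last a read-through gene with the start of Eef1akmt4.

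For eIF3, the 7 bound genes were Eif3c, Eif3d, Eif3h, Eif3i, Eif3k, Eif3l and Eif3m. The Eif3l region at chr15:79074933-79075256 was the strongest of them. It had a fold of 15.4 in replicate 1 (55 fragments, 41.4 to 71.6) and of 10.8 for replicate 2 (62 fragments, 47.5 to 79.5), averaging 13.1 ± 3.3 (SD, n = 2), and its background was 2.64 and 4.84 fragments. The library with the lower fold thus had more fragments over a higher background. The Eif3m region at chr2:105016992-105017171 had folds of 10.7 and 12.0 (29 and 36 fragments), and the Eif3c region at chr7:126566298-126566487 had 9.64 and 10.7 (26 and 32 fragments). Both reached a score of 540, and so did Eif3l and Eif3h.

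The other eIF3 regions were weaker. Eif3h at chr15:51865426-51865626 had folds of 6.20 and 8.01, and Eif3d at chr15:77970764-77971166 had 5.70 and 7.38. At Eif3i, chr4:129600592-129600751, the folds were 4.87 and 9.23, the widest relative gap among the eIF3 regions, and the fragments were 21 (13.0 to 32.1) and 35 (24.4 to 48.7). Its summit lay 8 bp from an end of Eif3i and 13 bp from an end of Tmem234. Eif3k at chr7:28981744-28981889 had 5.71 and 7.45 with a score of 121. Eif3f and Eif3g had a peak in replicate 2 only, with folds of 6.80 and 9.39. Eif3a (the gene of the largest subunit), Eif3b, Eif3e, Eif3j1 and Eif3j2 had no peak at an end in either list. Bound and unbound genes thus occurred within 1 complex.

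For eIF2 and its partners, Eif2b1 had the second strongest factor region. It encodes the alpha subunit of the exchange factor eIF2B. The region at chr5:124579023-124579197 was narrow, 175 bp, with folds of 17.8 (49 fragments, 36.3 to 64.8) and 20.1 (61 fragments, 46.7 to 78.4), a mean of 19.0 ± 1.6 (SD, n = 2), and a score of 855. Its replicate 2 summit lay 25 bp inside Eif2b1 and 42 bp from an end of Gtf2h3, a gene for a subunit of the general factor TFIIH. Of the other eIF2B genes, Eif2b2 and Eif2b4 had a peak in replicate 2 only, with folds of 4.38 and 4.10, and Eif2b3 and Eif2b5 had none.

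Among the eIF2 subunit genes, Eif2s1 (alpha) and Eif2s3x (the X-linked gamma) were bound, while Eif2s2 (beta) and Eif2s3y had no peak. Eif2s3y lies on chromosome Y, and whether these cells carry that chromosome was not checked here. The Eif2s1 region at chr12:78861532-78861773 had folds of 8.91 and 5.83 (30 and 33 fragments), and its summit was nearer to Atp6v1d, a gene of the lysosomal proton pump, at 387 bp, than to Eif2s1, at 451 bp. The Eif2s3x region at chrX:94212914-94213021 had 7.85 and 6.80 (21 and 20 fragments) and lay 307 bp upstream of the start by replicate 2. Neither reached a score of 540.

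Of the genes of the 4 eIF2 alpha kinases, Eif2ak1, which encodes the heme-regulated kinase, was the bound one. Its region at chr5:143817628-143817867 had nearly equal folds, 11.4 in replicate 1 (31 fragments, 21.1 to 44.0) and 11.3 in replicate 2 (43 fragments, 31.1 to 57.9), with summits 7 bp and 15 bp upstream of the start. The genes of the kinases activated by double-stranded RNA (Eif2ak2), by stress of the endoplasmic reticulum (Eif2ak3) and by lack of amino acids (Eif2ak4) had no peak at an end in either list. Eif2a and Eif2d encode factors that can deliver tRNA without eIF2. The Eif2a region at chr3:58525723-58526090 had folds of 3.08 and 8.22, the widest relative gap among the 23, with similar fragment numbers of 21 and 26 over backgrounds of 6.15 and 2.28. Eif2d had a peak in replicate 1 only, with a fold of 7.37.

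For scanning, Eif1a was bound. It encodes an autosomal form of eIF1A. Its region at chr18:46597474-46597696 had folds of 11.3 (31 fragments) and 13.3 (40 fragments), a mean of 12.3 ± 1.4 (SD, n = 2), and a score of 791. The replicate 2 summit was 150 bp from the end of Eif1a and 19 bp from an end of Tmed7, a gene for a cargo receptor of the secretory path. Eif1 had a peak in replicate 2 only, with a fold of 6.96, and Eif1ax and Eif1b had none. Eif1ad, whose product carries an eIF1A-like domain, had a region at chr19:5366521-5367022 with folds of 9.08 and 11.0 (32 and 42 fragments). Its strongest summits lay 110 bp downstream of the start in replicate 1 and 151 bp upstream in replicate 2, the widest gap between summits of the 23, 261 bp. An end of Banf1 also lay within 1 kb of it.

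In the cap-binding and helicase group, Eif4a3 and Eif4e2 had the stronger regions. Eif4a3 encodes the helicase-family subunit of the exon junction complex, and not the initiation helicase. Its region at chr11:119299920-119300201 had folds of 14.2 (44 fragments, 32.0 to 59.1) and 18.3 (59 fragments, 44.9 to 76.1), a mean of 16.3 ± 2.9 (SD, n = 2), and no other protein-coding gene end within 1 kb. Eif4e2 encodes a cap-binding protein that represses translation of its targets. Its stronger region, chr1:87214175-87214520, had its replicate 2 summit 384 bp inside the gene, with folds of 10.3 and 14.4, and the weaker, chr1:87213788-87214065, had it 11 bp outside the same end, with folds of 7.75 and 10.5. Both Eif4e2 regions had a score above 540. The related gene Eif4a3l1 had no peak.

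Eif4a1, the gene of the main initiation helicase, had a region inside its span at chr11:69671220-69671534, with its replicate 2 summit 1125 bp downstream of the start. The folds were 9.86 and 8.72 (27 and 33 fragments). It counted as bound because the edge of the region, and not the summit, was within 1 kb of the end. Replicate 2 had a further peak 118 bp upstream of the Eif4a1 start by its summit, with a fold of 8.09 (24 fragments, 15.4 to 35.7), which was in no region of the combined list. Eif4e, the main cap-binding protein gene, and Eif4e3, Eif4e1b, Eif4a2, Eif4b and Eif4h had no peak in either list at an end.

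For subunit joining, Eif5b was bound and Eif5 and Eif6 had a peak in replicate 2 only, with folds of 4.72 and 7.12. The Eif5b region at chr1:37997264-37997424 had folds of 5.00 and 7.36 (13 and 22 fragments) and a score of 121. Its summit was 679 bp from Eif5b and 37 bp from an end of Txndc9. Eif5a had no region within 1 kb. The nearest one, at chr11:69913924-69914069 with folds of 9.90 and 8.22, lay 2643 bp beyond its end and 10 bp from an end of Gps2. No unbound factor gene had a region inside its span that was over 1 kb from both ends. The bound genes were not searched for further regions of this kind.

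The 10 genes with a peak in replicate 2 only had folds from 3.85 to 9.39, with 14 to 33 fragments at their summits. Their median fold was 6.15, and that of all peaks of replicate 2 was 6.41. The strongest was Eif3g, with 28 fragments (18.6 to 40.5) 59 bp upstream of the start. The absence of a peak in replicate 1 is the absence of a call in that list, and coverage below the caller's threshold was not analysed here.

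Position relative to the gene start could be given for 17 bound genes, as the plot of summits shows. Taking the strongest region of each, the replicate 2 summit lay within 100 bp of an annotated start at 8 of 17 genes (47.1%), within 300 bp at 11 and within 1 kb at 15. At 1222 other bound genes with a known start 67.0% were within 100 bp, and the median distance was 51 bp, against 104 bp at the factor genes. The summit was upstream of the start at 11 and downstream at 6. The summits of the libraries lay a median of 12 bp apart over the 23 regions.

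**Figure D5:**
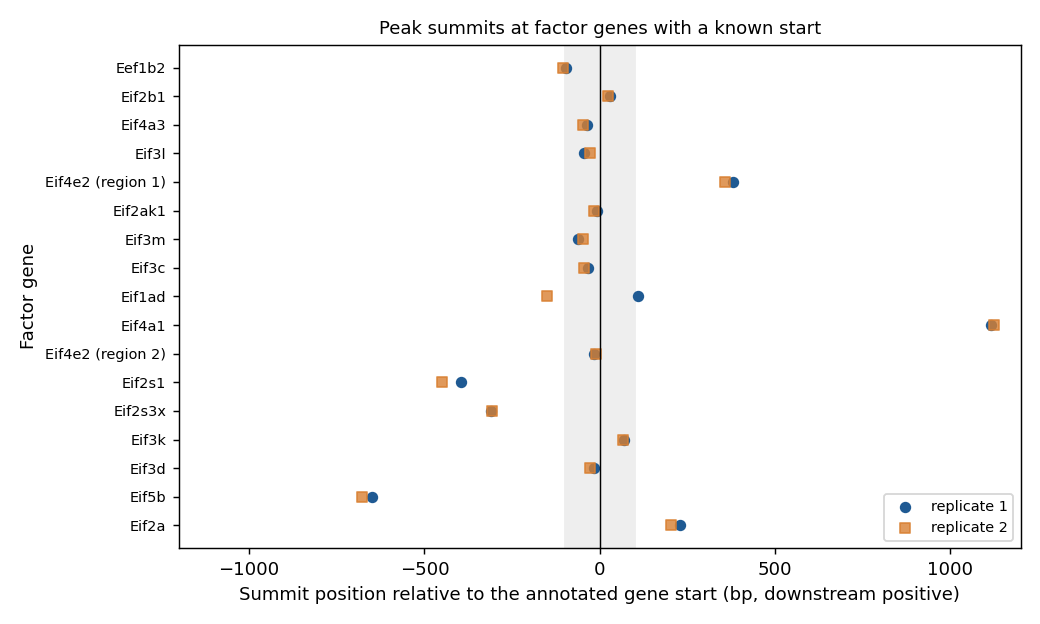
Position of the peak summit relative to the nearest annotated start (bp, downstream positive) in replicate 1 (circles) and replicate 2 (squares), for regions with a summit within about 1.2 kb of a start, sorted by mean fold enrichment from top to bottom. Grey marks 100 bp on each side, and the genes outside it include Eif4e2, Eif1ad, Eif4a1, Eif2s1, Eif2s3x, Eif5b and Eif2a.

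Sharing with a neighbour was frequent. Another protein-coding gene had an end within 1 kb of 11 of the 23 regions (47.8%), against 332 of 1226 other gene-end regions (27.1%). Giving each region only to the gene end nearest to its replicate 2 summit left 16 bound factor genes (24.2%, against 5.52% of all protein-coding genes). The genes that lost their region were Eif1a, Eif2a, Eif2s1, Eif5b and Eef2. Eef1b2 lost its strong region to Ndufs1 and kept the weaker one. At these shared sites occupancy cannot be given to 1 gene.

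A list of 50 other genes of the translation cycle, 49 of which the gene table holds, was counted in the same way. It covers the eIF4G scaffolds, binding proteins, poly(A)-binding proteins, release and recycling factors, enzymes that modify the factors, and the mitochondrial factors. Of the 49, 6 were bound (12.2%, against 6.99% of all protein-coding genes). They were Eif4g3 with a mean fold of 23.1 ± 7.6 (SD, n = 2), Tufm, Eif4ebp2, the release factor genes Etf1 and Gspt1, and Dohh, which completes hypusine on eIF5A. The last 5 had mean folds from 5.55 to 7.41. Among genes with a related task, 31 of 85 cytosolic ribosomal protein genes (36.5%) and 12 of 37 aminoacyl-tRNA synthetase genes (32.4%) were bound. Of the proteasome subunit genes, which are not translation genes, 13 of 49 (26.5%) were bound. A share above the 6.99% of all protein-coding genes was thus not particular to genes of translation. These counts stand beside 31.8% for the factor genes with no test of the differences.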

How the data were processed

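Per the submitters' processing notes, the tools were FastQC 0.11.8, BWA 0.7.17-r1198 and MACS2 2.1.2 and the build was mm10. Filters and the handling of duplicate reads are not given in the sources used here. The labels' protocols describe formaldehyde fixation and also name native ChIP-seq. The deposited peak lists of the 2 ChIP libraries give each peak's fold, the ratio of the ChIP pileup to its local background, and its −log10 p and −log10 q. The deposited combined list gives an IDR score and −log10 IDR for the pair. Its 6 columns of single-sample values were not used. No values of the input libraries were analysed here.

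The summit pileup was recovered as the whole number that gives both the deposited fold and p by the caller's Poisson formula (largest error in −log10 p 5.1e-05). Each region took the strongest overlapping peak of each library. Gene spans and starts came from RefSeq tables on GRCm38.p6, which cover starts for 52 of the 66 factor genes. These tables give no exons or introns, so none are named. Where a gene has several starts, the most upstream window was searched. Coordinates are 1-based. Assignment and recovery were tested on simulated data. Python 3.11.15, pandas 2.3.3 and scipy 1.17.1 were used.

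The factor genes, the roles and the other lists were chosen with earlier results of these data known, so no set test was run. The genes named are Eef1a1, Eef2, Eif4e, Eif4a1, Eif2s1 and Eif3a, every factor gene with a region or a single-library peak at an end, and any with a region elsewhere in its span. The remaining factor genes are named only to account for every member. Eif5a and the 3 lists of ribosomal protein, tRNA synthetase and proteasome genes were added after their values were seen. Alternatives covered the IDR score, each library alone, −log10 q of at least 5, the distance, the part of the gene, the nearest gene end, the genes compared with, and the motif.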

Additional observations from a re-analysis of the deposited data

How the results depend on the processing

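The count of bound factor genes stayed within 1.5 times 21 for −log10 q of at least 5 in both libraries (18), a distance of 500 bp (19) or 5 kb (22), the gene span plus 1 kb (21), annotated starts (16 of 52), the replicate 2 summit (20) and the nearest gene end (16). The IDR score moved it most: a minimum of 540 kept 12 genes, 830 kept 2, where Eif2b1 and Eif4a3 were left. Other genes went down as well, from a share of 6.91% to 3.08% and 0.385%, and the ratio of shares was 5.90 and 7.87. With 2 genes the last ratio carries little weight. In CpG-rich promoters the share of other genes was 12.4%. Without replicate 1 the count was 31 and without replicate 2 it was 22, beside 11.1% and 7.45% of other genes. The median fold of the factor regions was 9.12 and became 11.3 under the 540 minimum. With the folds of replicate 1 alone it was 8.91 and with those of replicate 2 alone 10.2, over the same regions of the combined list. The choice of regions thus still rested on both libraries. Factor promoters with TTCG went from 38 to 16 with TTCGG and to 17 in the 100 bases around the start, by construction. Bound genes of the wider translation list went from 6 to 1 of 49 under the 540 minimum, beside 3.13% of all protein-coding genes. The higher share of that list was thus not kept at this minimum. In the list of replicate 1 alone 8 had a peak (16.3%, against 7.53% of all protein-coding genes), and in that of replicate 2 alone 12 did (24.5%, against 11.2%). No paired analysis was possible because only the 2 ChIP libraries, which are 1 group, have values here. Factor region summits of 12 to 133 fragments carry wide counting intervals, which limits the order of neighbouring genes.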
